A study of Mus musculus with 3 samples.

Results

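A set of 10 Wnt pathway genes (3 ligands, 4 secreted inhibitors, a receptor and 2 feedback targets) were followed across stromal and urothelial cells of mouse bladder and of bladder assembloids. They were taken by symbol from the mouse features of the count matrices, which gave 10 of 31053 mouse features: Wnt2, Wnt4, Wnt5a, Dkk2, Sfrp1, Sfrp2, Sfrp4, Lgr5, Nkd1 and Axin2. Single cells had been captured with a 10x Genomics 3′ kit, 1 library for each of 3 groups. The bladder library pooled 8 organs of wild-type C57BL/6 mice that were 8 to 9 weeks old. The remaining libraries came from assembloids, cultured constructs of urothelium and stroma, at 1 day and at 7 days of reconstitution, with 3 assembloids in each pool. The sources used here give no strain or age for the cells of the assembloids. With 1 library per group there is no replicate and no test between groups. Every bracket below is a 95% interval that covers counting error only.

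Wnt proteins are secreted lipid-modified ligands that bind Frizzled receptors with LRP5 or LRP6 co-receptors. In the canonical branch this stabilises beta-catenin, which acts with TCF/LEF factors at target genes. Wnt2 and Wnt4 have been linked to signalling from bladder stroma to urothelium downstream of Hedgehog, and Wnt5a is best known for branches that do not use beta-catenin. Dkk2 binds the LRP co-receptors, and the Sfrp proteins are secreted Frizzled-like proteins that bind Wnts. Lgr5 is a receptor of R-spondins and also a target of the pathway in several tissues. Axin2 and Nkd1 are negative-feedback targets, and Axin2 in particular is widely read as a sign of canonical signalling.

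The deposited matrices held 93560608, 135955678 and 120301672 UMIs in the bladder, 1-day and 7-day libraries, and 6775, 8258 and 8172 mouse cells were kept. Levels are given as CPM, the UMIs of a gene summed over the cells of a class, divided by all mouse UMIs of those cells and scaled to a total of 1e6. Pairs of libraries shared 21 to 114 cell barcodes. In the 7-day library, 3761 of the cells (46.0%) fell in clusters that bladder cells dominate, with a median of 3248 UMIs, against 4411 cells with a median of 19623 UMIs in the assembloid clusters. The 1-day library held only 58 cells in the clusters of the first kind. How these cells came into the 7-day library was not tested. The 7-day urothelium is given with and without them, 7-day adult stroma consists of them, and other 7-day classes that mix both kinds are named where used. A cell's class comes from its cluster, and the clusters were made without the 10 genes or any other listed Wnt gene.

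Adult stroma was taken as the fibroblast clusters high in Dcn, a matrix proteoglycan gene. It comprised 1453 cells in the bladder library and 810 in the 7-day library, in 2 clusters that held 13 and 12 of 13 fibroblast markers and 22890 and 19107 CPM of Dcn. One of the 2 clusters was high in Hhip, a Hedgehog target (252 against 6.24 CPM), and is called Hhip-high here. The Hhip-high cluster held 416 bladder cells and the Hhip-low cluster 1037. This division was made after the levels of the 10 genes in the clusters had been seen, so the values that follow describe it and do not test it. The urothelial clusters held 6 to 18 of 18 urothelial markers. In assembloids, 4 stromal subsets were named by a leading gene: Mmp3 (310 cells at 1 day and 721 at 7 days), Dkk2 (111 and 316), Tnfsf15 (1606 and 319) and Crabp1 (1910 and 1173). Dkk2 is among the 10 genes, so that subset was assigned through Bmp4 instead. The rule for these subsets was revised 2 times after the levels had been seen, and under its earlier forms the Dkk2 subset was another cluster. A cycling cluster and a cluster high in Spp1 were left outside the 4 subsets. A second cycling cluster (cluster 10, Top2a at 291 CPM) passed the rule for Crabp1 and gave 599 of the 1910 Crabp1 cells at 1 day and 367 of the 1173 at 7 days. The Tnfsf15 and Mmp3 clusters carried 3 and 8 of 13 fibroblast markers. The Dkk2 cluster and Crabp1 clusters 2 and 18 matched smooth muscle best, with 3, 4 and 3 of 9 markers and, in the Dkk2 cluster, Myh11 among the leading genes. Cluster 10 matched no class.

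**Figure D1:**
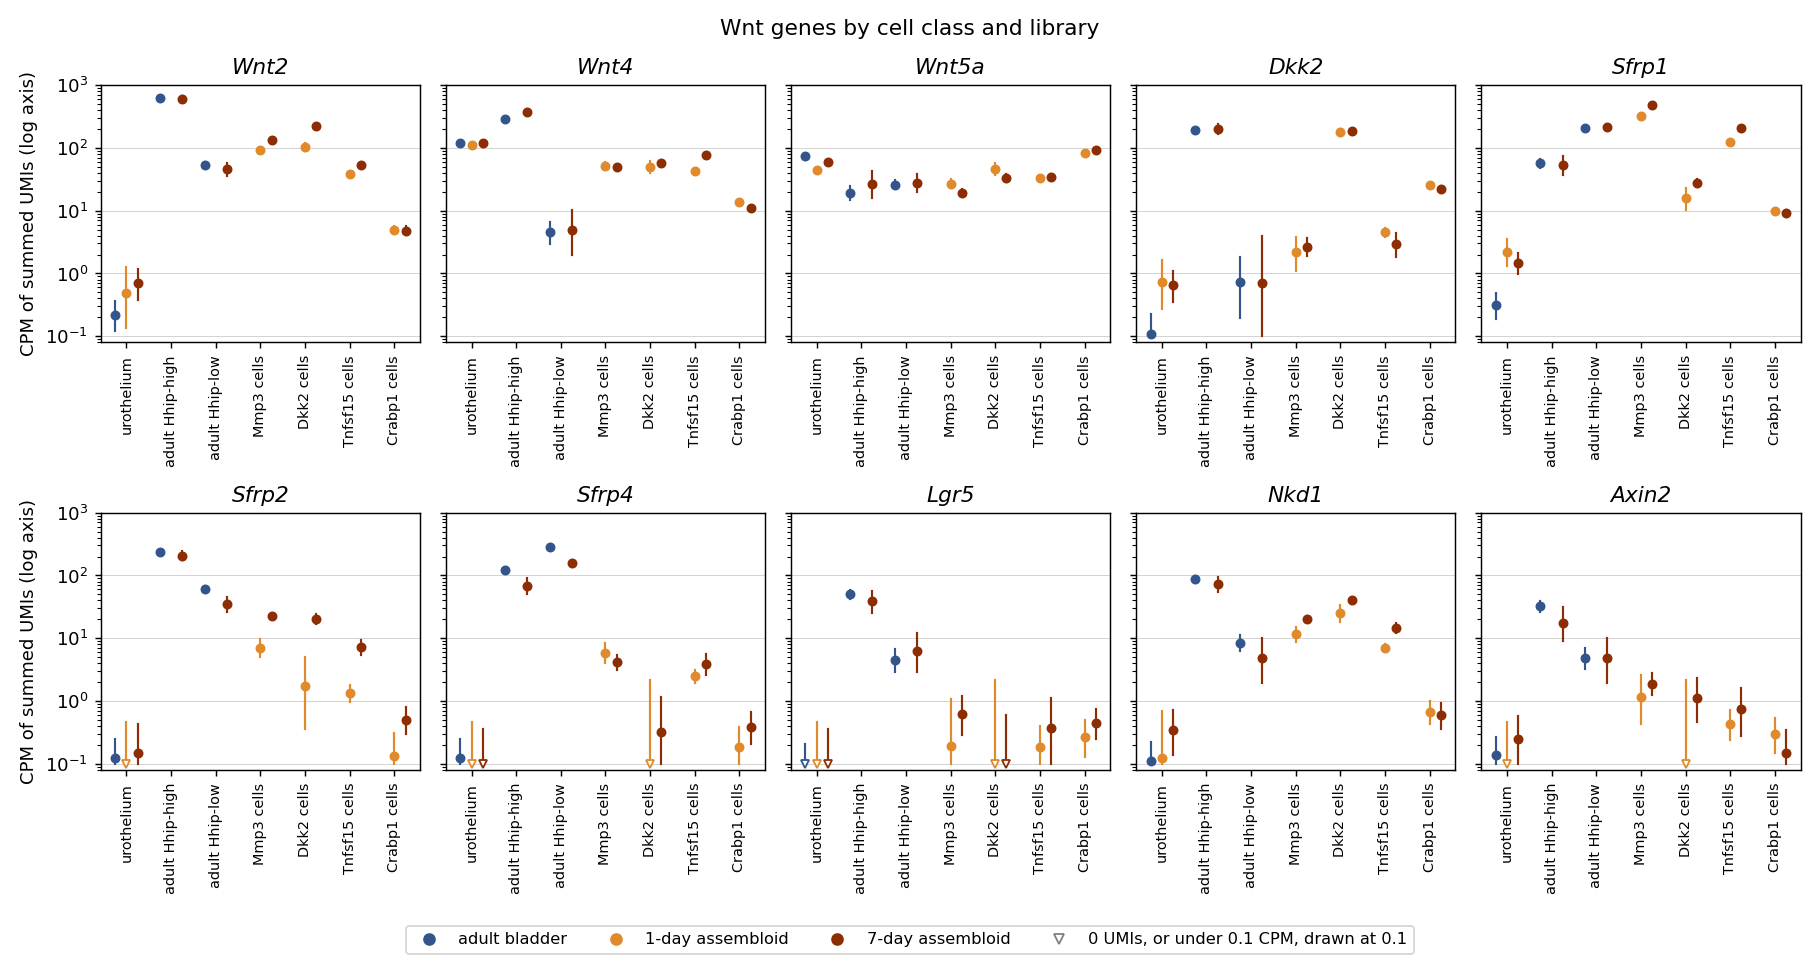
Each panel plots the level of 1 gene in CPM on a log axis, by cell class, with the bladder, 1-day and 7-day libraries in separate colours and vertical lines for the 95% counting interval. The 7-day urothelium includes bladder-type and assembloid clusters. Open triangles mark 0 UMIs or less than 0.1 CPM. In the urothelium Wnt4 and Wnt5a lie between 43.7 and 120 CPM in all 3 libraries, and each of the other 8 genes at 2.24 CPM or less.

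Wnt2 was almost entirely a stromal gene. It stood at 255 CPM [245 to 266] in the adult stroma of bladder and at 224 CPM [204 to 245] in the cells of that kind in the 7-day library. Of all Wnt2 UMIs in the kept bladder cells, 95.1% came from adult stroma. Within it, the Hhip-high cells had 629 CPM [601 to 658] and the Hhip-low cells 52.8 CPM [46.9 to 59.2]. A Wnt2 UMI was found in 89.9% of Hhip-high and 16.0% of Hhip-low bladder cells, and in 74.4% and 8.23% when cells were thinned to 2500 UMIs each. Endothelial cells, which served as the level in cells that should lack a stromal gene, held a Wnt2 UMI in 1.15% of cells, at a median of 4987.5 UMIs against 5837 in adult stroma. Bladder mesothelium, 50 cells, had 117 CPM of Wnt2 in 54% of cells. Bladder urothelium had 0.220 CPM and myeloid cells had 0 Wnt2 UMIs in all 3 libraries.

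In assembloids the level of Wnt2 depended on the subset. Mmp3 cells had 91.4 CPM at 1 day and 134 CPM at 7 days. Dkk2 cells had 103 CPM [88.0 to 119] at 1 day and 222 CPM [210 to 234] at 7 days, a log2 difference of 1.11 [0.89 to 1.35]. Tnfsf15 cells had 38.7 and 52.5 CPM. Crabp1 cells had 4.94 and 4.81 CPM, below every other subset. All 8 values were under the adult mean of 255 CPM, while the 7-day Dkk2 cells overlapped in their interval with the adult cells of the 7-day library.

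In bladder Wnt4 was found mainly in the urothelium and the Hhip-high stroma. Urothelium held 120 CPM [117 to 123] in bladder, 109 CPM [102 to 116] at 1 day and 118 CPM [113 to 123] at 7 days. Of the bladder library's Wnt4 UMIs, 87.9% lay in the urothelium, whose cells had a median of 21253 UMIs. The share was 18.5% at 1 day, where assembloid stroma held 63.0% and mesothelium 18.0%, and 41.9% at 7 days, where assembloid stroma held 51.4%. The 41.9% mixes both kinds of cell: 1490 of the 2127 urothelial cells at 7 days lay in bladder-type clusters. The assembloid urothelial clusters alone had 118 CPM [109 to 128] at 7 days. In Hhip-high stroma Wnt4 stood at 290 CPM [271 to 310], and in Hhip-low stroma at 4.52 CPM, a log2 difference of 5.98 [5.43 to 6.64]. The Hhip-low level was within the interval of endothelial cells (5.62 CPM [4.01 to 7.65]). Bladder mesothelium, 50 cells, had 96.9 CPM of Wnt4 [74.3 to 124] in 44% of cells. Bladder myeloid cells had 29.3 CPM from only 8 UMIs, with an interval of 12.7 to 57.7.

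Unlike Wnt2, Wnt4 differed little among the Mmp3, Dkk2 and Tnfsf15 cells of assembloids. At 1 day they had 51.9, 49.5 and 43.3 CPM, and the intervals of the first and the second overlapped. At 7 days the values were 49.7, 58.3 and 77.6 CPM, with Tnfsf15 cells now highest. Crabp1 cells were again lowest, at 13.5 and 10.8 CPM. Mesothelial cells of the 1-day library had 227 CPM [212 to 243], the highest Wnt4 level of that library.

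Within single Hhip-high cells of bladder, Wnt2 and Wnt4 were not detected together more often than apart. Of the 416 cells, 374 held a Wnt2 UMI, 194 a Wnt4 UMI and 174 both. Wnt4 was detected in 46.5% of the cells with Wnt2 and in 47.6% of those without, although the cells with Wnt2 were deeper (median 7275 against 5427.5 UMIs). Over all adult stroma of bladder the same shares were 32.8% and 4.05%, where 374 of the 540 cells with Wnt2 and 194 of the 214 with Wnt4 were Hhip-high. Of the 221 Hhip-high cells of the 7-day library, 165 held a Wnt2 UMI, 100 a Wnt4 UMI and 81 both. Wnt4 was detected in 49.1% of those with Wnt2 and in 33.9% of those without, at median depths of 3056 and 2574.5 UMIs. No interval was computed for these shares, and a difference between the libraries was not tested.

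Wnt5a was found in the urothelium, in every stromal class and in mesothelium. In the urothelium it stood at 74.95 CPM [72.8 to 77.1] in bladder, 43.7 CPM [39.3 to 48.5] at 1 day and 59.5 CPM [56.1 to 63.0] at 7 days. The 7-day value is a mixture: the bladder-type clusters had 65.2 CPM and the assembloid clusters 43.9 CPM [38.5 to 49.9], a level that overlapped the 1-day one. Hhip-high and Hhip-low stroma of bladder had 19.4 and 25.8 CPM with overlapping intervals. Crabp1 cells had 83.5 CPM [80.6 to 86.5] at 1 day and 91.5 CPM [88.3 to 94.8] at 7 days, above the Mmp3 (26.9 and 19.3), Dkk2 (46.6 and 33.5) and Tnfsf15 cells (33.2 and 34.2). Of the 3 Crabp1 clusters, 2 carried this level (84.8 and 90.3 CPM at 1 day), while the third, the highest in Crabp1 itself, had 12.6 CPM from 21 UMIs. An assembloid cluster outside the 4 subsets, high in Spp1, also had 88.4 CPM of Wnt5a.

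The inhibitors divided the stroma in different ways. Dkk2 was at 189 CPM [174 to 206] in Hhip-high stroma of bladder and at 0.723 CPM, 4 UMIs in all, in Hhip-low stroma. That log2 difference of 7.86 [6.67 to 9.91] was the widest of the 10 genes in this comparison. Endothelial cells also held Dkk2, at 21.9, 16.7 and 24.997 CPM in bladder, 1-day and 7-day libraries, so they are no background for this gene. In bladder 147 of the 156 endothelial UMIs lay in 1 of 4 clusters (cluster 19, 79.4 CPM), and the others had 0.882 to 1.99 CPM. The 7-day endothelium mixes bladder-type clusters (0 to 55.1 CPM) with an assembloid cluster at 31.6 CPM, and myeloid cells had 0, 2 and 0 UMIs. In assembloids the Bmp4-assigned Dkk2 cells had 175 CPM [156 to 196] at 1 day and 187 CPM [177 to 198] at 7 days, near the adult Hhip-high level. Because the subset carries the gene's name and its rule was revised with these levels in view, the values describe the cluster only. Crabp1 cells had 25.2 and 21.8 CPM, and Mmp3 and Tnfsf15 cells 4.58 CPM or less.

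Sfrp1 ran opposite to Dkk2 in adult stroma. Hhip-low cells had 204 CPM [192 to 216] and Hhip-high cells 56.4 CPM [48.2 to 65.6]. Glia had the highest level in bladder, 881 CPM [821 to 945]. In assembloids Mmp3 cells had 316 CPM at 1 day and 481 CPM at 7 days, both above the 152 CPM of adult stroma taken whole. Tnfsf15 cells had 124 and 204 CPM. Dkk2 cells had 15.7 and 27.8 CPM and Crabp1 cells 9.88 and 9.02 CPM. The Dkk2 subset was chosen with its Dkk2 level in view, so its low Sfrp1 describes that cluster and is no second instance of the adult pattern. The cycling cluster, which the earlier rules took as the Dkk2 subset, had 124 CPM of Sfrp1 and 10.6 CPM of Dkk2 at 1 day. The low Sfrp1 of Dkk2 cells also rests on how the clusters were cut. Where Mmp3 and Bmp4 cells fell into 1 cluster, as with the Wnt genes kept for clustering, the log2 difference of Sfrp1 in Dkk2 cells from adult stroma was 0.70 in place of -3.25.

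Sfrp2 and Sfrp4 were high in adult stroma and low in assembloid stroma. Bladder mesothelium also had 106 CPM of Sfrp2, in 64% of its 50 cells. Sfrp2 had 234 CPM [217 to 252] in Hhip-high and 61.1 CPM [54.7 to 67.9] in Hhip-low bladder stroma. At 1 day it had 7.08, 1.75, 1.33 and 0.135 CPM in Mmp3, Dkk2, Tnfsf15 and Crabp1 cells. At 7 days the same subsets had 22.6, 20.6, 7.18 and 0.508 CPM, each higher than at 1 day. Sfrp4 had the reverse adult pattern, 288 CPM [274 to 303] in Hhip-low and 122 CPM [110 to 135] in Hhip-high stroma. The share of cells with an Sfrp4 UMI did not follow, at 19.1% and 18.8%, and with the mean of per-cell CPM the log2 difference was -0.88, under 2-fold. In assembloids Sfrp4 stayed at 5.90 CPM or less in every subset at both ages. The adult cells in the 7-day library had 128 CPM of Sfrp4 [113 to 144], below the 230 CPM [220 to 240] of bladder. Between these adult cells of the 7-day library and bladder, 0 of 9 measured genes were past 2-fold, where 0.155% of 5797 genes differed, 0.0863% higher and 0.069% lower. Within Hhip-low cells of bladder Sfrp4 was detected in 16.3% of cells with Sfrp1 and in 21.1% of those without. The cells with Sfrp1 were deeper (6286 against 4330 UMIs), and no interval was computed for these shares.

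The receptor gene Lgr5 and the feedback target Axin2 were low in assembloid stroma and urothelium, and Nkd1 was low in urothelium and Crabp1 cells. Lgr5 had 50.1 CPM [42.4 to 58.8] in Hhip-high and 4.52 CPM in Hhip-low bladder stroma, and 0.633 CPM or less in the 4 assembloid subsets at both ages. Axin2 had 32.4 CPM [26.3 to 39.5] in Hhip-high and 4.88 CPM in Hhip-low stroma, with 23.5 CPM in the 50 mesothelial cells, 18.9 in pericytes, 12.1 in smooth muscle and 8.56 in endothelium. In the 4 assembloid subsets Axin2 was at 1.90 CPM or less. Nkd1 had 87.5 CPM [77.2 to 98.7] in Hhip-high and 8.49 CPM in Hhip-low stroma. Smooth muscle had more, 196 CPM [182 to 212], and pericytes had 72.7 CPM, glia 40.4 and mesothelium 39.1. Lgr5 in bladder glia was at 15.7 CPM. Nkd1 remained detectable in assembloid stroma, at 25.1 and 39.999 CPM in Dkk2 cells, 11.6 and 20.2 CPM in Mmp3 cells and 7.09 and 14.7 CPM in Tnfsf15 cells, and at 0.675 CPM or less in Crabp1 cells. The 3 genes thus shared a low level in Crabp1 cells and in the urothelium, where each was at 0.350 CPM or less in every library.

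Promoter sequence is shown for the gene most often read as a canonical target, Axin2, and for Dkk2, which divided the stroma most widely. RefSeq promoter windows (GRCm38.p6, the same assembly as mm10) were available for 6 of the 10 genes. The 250 bases before each start, on the plus strand, were searched on both strands for CTTTGA and CTTTGT, letters at the core of TCF/LEF sites, and for TGGGTGGTC, a GLI site. Matches are in capitals.
Axin2, chr11:108920099-108920348: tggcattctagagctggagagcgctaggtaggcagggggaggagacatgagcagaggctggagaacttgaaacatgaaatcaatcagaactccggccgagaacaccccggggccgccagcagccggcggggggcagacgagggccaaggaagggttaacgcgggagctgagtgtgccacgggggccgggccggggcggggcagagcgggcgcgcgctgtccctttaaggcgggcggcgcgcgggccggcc
Dkk2, chr3:132085042-132085291: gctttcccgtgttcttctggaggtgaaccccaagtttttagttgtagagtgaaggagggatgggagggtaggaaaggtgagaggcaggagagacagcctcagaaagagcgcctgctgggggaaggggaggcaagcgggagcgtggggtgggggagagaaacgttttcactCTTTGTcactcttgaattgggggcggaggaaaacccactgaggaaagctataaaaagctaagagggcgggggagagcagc
Axin2 had 0 matches in this window, and Dkk2 had 1 CTTTGT that begins 80 bases before the start. Of 32851 promoter windows of the same length, 27.6% held CTTTGA or CTTTGT and 0.225% held TGGGTGGTC. The other 4 genes with a window (Wnt2, Wnt4, Sfrp2 and Nkd1) held none of the 3. The match describes letters only. In mm10 the Axin2 gene lies on the plus strand at chr11:108920349-108950783 and Dkk2 on the plus strand at chr3:132085292-132180304.

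Set side by side, the 2 kinds of adult stroma differed in most of the 10 genes. A gene is counted here as higher or lower where it had at least 20 CPM in the higher group and at least a 2-fold difference. In bladder, 7 of the 10 genes were higher in Hhip-high cells (Wnt2, Wnt4, Dkk2, Sfrp2, Lgr5, Axin2 and Nkd1), 2 were lower (Sfrp1 and Sfrp4) and Wnt5a was within 2-fold. Over all 6178 genes measured in the comparison 9.03% differed by as much, 5.2% higher and 3.84% lower, and the median log2 difference was 0.14 against 3.03 for the 10 genes. The adult cells of the 7-day library, clustered together with those of bladder, gave the same sign for all 10, with Axin2 under 20 CPM and Wnt5a at -0.05 [-0.96 to 0.77]. There 13.5% of 6176 genes differed, 8.26% higher and 5.25% lower. Because the division was chosen with these levels in view, the counts are a description. Its sizes also depended on the clustering. Over the other settings tried in bladder, the Wnt2 difference ranged from 1.61 to 3.87, Sfrp1 from -3.48 to -1.50, Sfrp4 from -9.55 to -0.88, and Wnt5a changed sign, from -0.55 to 0.72. A smaller share of cells with the transcript and fewer transcripts per cell cannot be told apart in summed counts, except where the shares above are given.

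**Figure D2:**
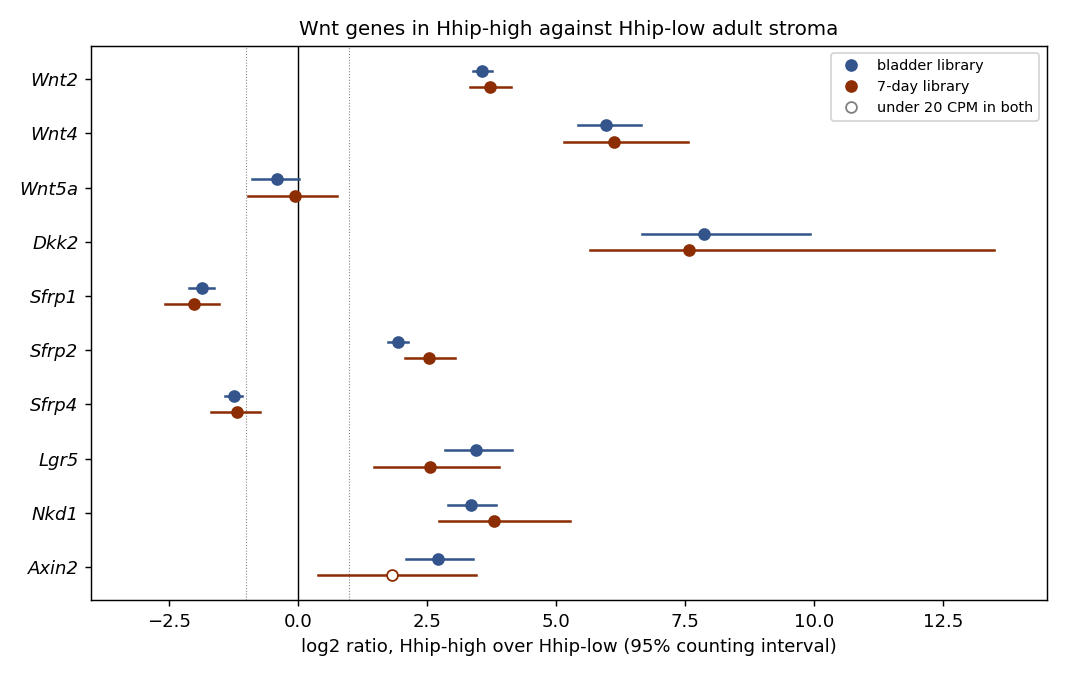
The log2 ratio of each gene in Hhip-high over Hhip-low adult stroma is plotted with its 95% counting interval, for the bladder library and for the cells of the same clusters in the 7-day library. Dotted lines mark 2-fold, and an open point marks less than 20 CPM in both groups. In bladder 7 genes lie to the right of 2-fold, Sfrp1 and Sfrp4 to the left and Wnt5a between.

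Against adult bladder stroma, the 4 assembloid subsets, summed, were lower in most of the 10 genes. At 1 day, 7 of 9 measured genes were lower, Wnt5a was higher and Sfrp1 was just within 2-fold (78.8 against 152 CPM). Axin2 was not counted because adult stroma as a whole had 14.54 CPM, and assembloid cells had 0.407 CPM. The background was high: 39.3% of 6539 genes differed by 2-fold, 20% of them lower and 19.3% higher as shares of all genes measured. The median log2 difference was -2.95 for the 9 genes and 0.12 for all genes. Sfrp4 (1.54 against 230 CPM), Sfrp2 (1.14 against 122 CPM) and Lgr5 (0.223 against 20.5 CPM) were 150-fold, 107-fold and 91.9-fold lower. Wnt2 (27.2 against 255 CPM) was 9.37-fold lower, Nkd1 (4.68 against 36.2 CPM) 7.75-fold, Dkk2 (18.3 against 66.9 CPM) 3.66-fold and Wnt4 (29.5 against 105 CPM) 3.55-fold. Adult stroma here joins Hhip-high and Hhip-low cells, and Hhip-low cells alone had 4.52 CPM of Wnt4 and 0.723 CPM of Dkk2. Against Hhip-low cells the 1-day subsets were at least 2-fold higher in Wnt4 and in Wnt5a (25.8 CPM in Hhip-low cells). They were at least 2-fold lower in Sfrp1 (78.8 against 204 CPM), Sfrp2 and Sfrp4. Wnt2 was lower but within 2-fold (27.2 against 52.8 CPM). Among genes under 20 CPM in both groups, Dkk2 was higher and Nkd1, Lgr5 and Axin2 were lower. Shares over all genes were not computed against Hhip-low cells.

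At 7 days the same 7 genes were lower and Wnt5a higher, where 36.2% of 6541 genes differed, 18.2% lower and 18.1% higher. Both ages were set against the same bladder cells. The smallest of the differences was that of Dkk2 (31.4 against 66.9 CPM, log2 -1.10). Sfrp1 differed by -0.08 [-0.16 to 0.01] on the log2 scale, and by up to 0.94 under other settings. Wnt5a stood at 57.6 and 61.8 against 23.6 CPM. With clustering at resolution 0.5 or 2, or with subsets limited to clusters at 75% of the highest, Wnt5a was no longer 2-fold higher in the 4 subsets together at either age. Against Hhip-low bladder cells alone, the 7-day subsets were at least 2-fold higher in Wnt4 (4.52 CPM in Hhip-low cells), Dkk2 (0.723 CPM) and Wnt5a (25.8 CPM). Wnt2 (52.8 CPM in Hhip-low cells) and Sfrp1 (204 CPM) were within 2-fold, and Sfrp2 and Sfrp4 were at least 2-fold lower. Among genes under 20 CPM in both groups, Nkd1 was near the Hhip-low level (8.49 CPM), and Lgr5 and Axin2 were lower. Shares over all genes were not computed for this comparison.

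Taken one at a time at 1 day, the Mmp3, Dkk2 and Crabp1 cells each had 1 of the 9 measured genes above adult stroma. In Mmp3 cells Sfrp1 was higher (log2 1.05, but -0.11 at resolution 0.5) and 7 genes were lower, where 31.7% of 6275 genes differed, 12.9% higher and 18.8% lower. In Dkk2 cells Dkk2 was higher (log2 1.39) and 6 were lower, where 36.8% of 6553 genes differed, 18.8% higher and 17.9% lower. The Dkk2 value depends on the rule: under both earlier forms, which took the cycling cluster as the Dkk2 subset, it was -2.66. In Tnfsf15 cells none was higher and 7 were lower, where 38.1% of 6409 genes differed, 17.4% higher and 20.7% lower. In Crabp1 cells Wnt5a was higher (log2 1.82 [1.62 to 2.04]) and 8 were lower, where 43.7% of 6666 genes differed, 22.6% higher and 21.1% lower. With subsets limited to clusters at 75% of the highest, that Wnt5a difference was -0.87. Wnt5a in Mmp3 cells differed by 0.19 [-0.13 to 0.51].

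**Figure D3:**
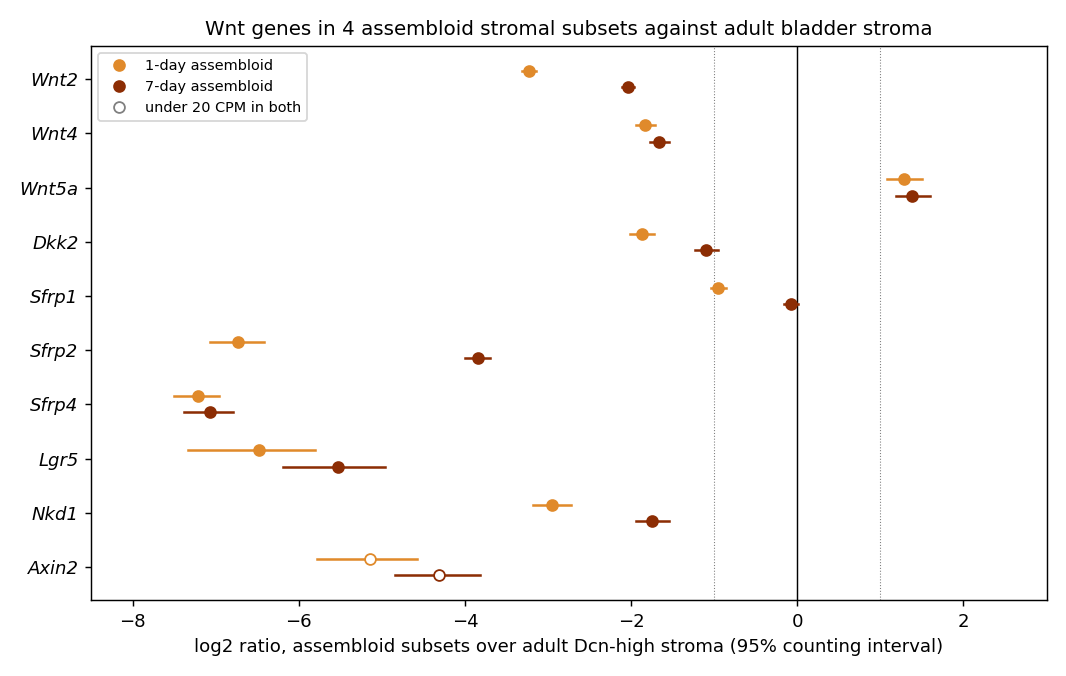
The log2 ratio of each gene in the 4 assembloid subsets together over adult Dcn-high bladder stroma is plotted with its 95% counting interval, at 1 day and at 7 days. Dotted lines mark 2-fold and open points less than 20 CPM in both groups. Wnt5a is the only gene to the right of 0, and Wnt2, Sfrp2 and Nkd1 lie closer to 0 at 7 days than at 1 day.

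From 1 day to 7 days the genes of the 10 that passed 2-fold were all higher at 7 days. In the 4 subsets together Wnt2 was the 1 of 5 measured genes past 2-fold, at 62.2 against 27.2 CPM (log2 1.19 [1.11 to 1.27]), where 1.14% of 5528 genes differed, 1.05% higher and 0.0904% lower. Sfrp2 (8.45 against 1.14 CPM) and Nkd1 (10.8 against 4.68 CPM) were also higher but lay under 20 CPM. The mixture of subsets differed between ages, with 3937 cells at 1 day and 2529 at 7 days. Tnfsf15 cells were 1606 and 319 of these, Mmp3 cells 310 and 721, Dkk2 cells 111 and 316, and Crabp1 cells 1910 and 1173. The pooled Wnt2 difference was above that of each subset. It was log2 1.11 in Dkk2, 0.55 in Mmp3 and 0.44 in Tnfsf15 cells, and Crabp1 cells had 4.94 and 4.81 CPM. In Mmp3 cells Sfrp2 was past 2-fold, where 1.66% of 5407 genes differed, 1.04% higher and 0.629% lower. In Dkk2 cells Wnt2 and Sfrp2 were, the latter from 3 UMIs at 1 day (log2 3.34 [1.98 to 5.85]), where 2.99% of 5814 genes differed, 1.82% higher and 1.17% lower. Among genes with at least 20 CPM, Tnfsf15 cells had 0 of the 10 past 2-fold, where 0.849% of 5415 genes differed, 0.591% higher and 0.259% lower. Below 20 CPM, Sfrp2 (7.18 against 1.33 CPM) and Nkd1 (14.7 against 7.09 CPM) were more than 2-fold higher there. Crabp1 cells also had 0 with at least 20 CPM, where 0.0548% of 5475 genes differed, all of them higher. Their Sfrp2 rose from 0.135 to 0.508 CPM, on 5 and 17 UMIs.

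In the urothelium only Wnt4 and Wnt5a were measured, and neither was 2-fold different between libraries. At 1 day the log2 difference from bladder was -0.14 [-0.25 to -0.04] for Wnt4 and -0.78 [-0.94 to -0.62] for Wnt5a, where 18.1% of 5767 genes differed by 2-fold, 11% higher and 7.09% lower. The median over all genes was 0.23 there, and relative to that median Wnt5a was 2-fold lower. At 7 days, with 1.42% of 5065 genes past 2-fold (1.4% higher and 0.0197% lower), the differences were -0.03 for Wnt4 and -0.33 for Wnt5a. Without the bladder-type clusters they were -0.02 [-0.14 to 0.09] and -0.77 [-0.97 to -0.58], where 17.1% of 5731 genes differed, 10.2% higher and 6.91% lower. Between 7 days and 1 day, where 8.47% of 5658 genes differed (4.33% higher and 4.14% lower), neither was past 2-fold. The assembloid urothelium alone differed between ages by 0.01 [-0.24 to 0.25] for Wnt5a, with 0.271% of 5527 genes past 2-fold, 0.0724% higher and 0.199% lower.

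Wnt5a differed among urothelial clusters as well as among libraries. In bladder the cluster led by Upk3a, Sprr1a and Ivl (cluster 0) had 51.3 CPM of Wnt5a, and the clusters led by Upk3a with Psca (cluster 4) and by Krt15 (cluster 15) had 104 and 106 CPM. Wnt4 ran from 106 CPM in cluster 0 to 135 and 152 CPM in the others. The 7-day cells of the same 3 clusters had 45.7, 87.7 and 89.4 CPM of Wnt5a. The assembloid clusters, cluster 6 led by Krt15 and cluster 9 led by Sprr2a3 and Psca, had 53.3 and 32.9 CPM at 1 day and 50.7 and 37.0 CPM at 7 days. Wnt4 in cluster 6 was 125 and 132 CPM, within the range of the bladder clusters. The other 8 genes held 20 UMIs or fewer each over the 2693 bladder urothelial cells, at 0.314 CPM or less. Sfrp1 was the highest of them in assembloid urothelium, at 2.24 CPM at 1 day, under the endothelial level of 6.68 CPM in that library.

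**Figure D4:**
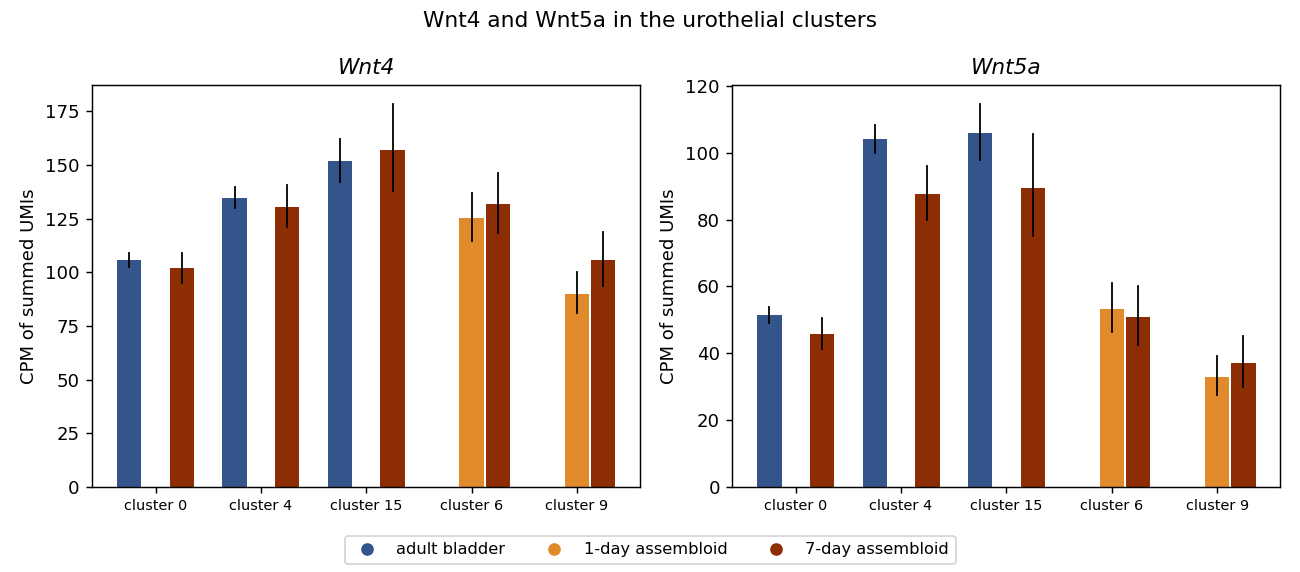
Bars give the CPM of Wnt4 and Wnt5a in each urothelial cluster, coloured by library, with the 95% counting interval as a line. Clusters with fewer than 50 cells in a library are not drawn. Wnt5a reaches 104 to 106 CPM in bladder clusters 4 and 15 and 32.9 to 53.3 CPM in the assembloid clusters 6 and 9.

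The wider pathway was read from 72 other listed genes. In the 4 assembloid subsets at 1 day 28 were measured, 12 were lower, 1 was higher and 15 were within 2-fold of adult stroma, with a median log2 difference of -0.32. Among all genes 39.3% differed there, 20% lower and 19.3% higher. The 13 of 28 that differed are near that total, but not by direction. The 12 lower are a larger share than 20%, and the 1 higher a smaller share than 19.3%. Among ligands Wnt5b was lower (1.73 against 23.4 CPM). Of 8 receptors and co-receptors 4 were lower, among them Fzd1 (16.1 against 149 CPM) and Fzd4 (7.14 against 38.1 CPM). Of the secreted inhibitors 3 of 4 were lower: Notum, a Wnt deacylase, had 3 UMIs against 27.5 CPM (log2 -9.23 [-11.74 to -7.88]), Sostdc1 0.0788 against 20.4 CPM, and Dkk3 21.7 against 187 CPM. Wls, which carries Wnts to the cell surface, was within 2-fold (167 against 136 CPM). The relay genes had 3 of 12 lower, including Tcf7l2 (29.2 against 63.1 CPM). Ccnd1, a cell cycle gene and a target in some cells, was higher (146 against 26.6 CPM), and Myc was lower (17.9 against 63.0 CPM). At 7 days 10 of 27 were lower and 2 higher, where 36.2% of all genes differed, 18.2% lower and 18.1% higher. From 1 day to 7 days Fzd1 alone of 21 passed 2-fold (33.2 against 16.1 CPM), where 1.14% of all genes did. No other listed R-spondin pathway gene reached 20 CPM in the 4 subsets summed, while Rspo3 had 16.7 and 20.4 CPM in Crabp1 cells.

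Within adult bladder stroma 27 of the 72 were measured, and 7 were higher and 1 lower in Hhip-high cells, where 9.03% of all genes differed. Notum (76.5 against 1.08 CPM) and Sostdc1 (56.8 against 0.723 CPM) had the widest differences, followed by Ccnd1 (53.1 against 12.3 CPM). Dkk3 and Fzd1 were higher as well, at 318 against 117 CPM and 249 against 94.8 CPM. Wnt11 and Fzd7 also passed, and Frzb, an Sfrp relative, was lower (14.4 against 44.1 CPM). In the urothelium at 1 day 3 of 17 measured genes differed, a share no higher than the 18.1% of all genes: Dvl1 (27.3 against 11.1 CPM) and Ccnd1 (108 against 44.7 CPM) were higher and Myc (8.32 against 45.4 CPM) was lower. Wnt7b, an epithelial Wnt, was within 2-fold (31.4 against 24.7 CPM). At 7 days 15 were measured and 0 passed, where 1.42% of all genes did, and without the bladder-type clusters 2 were higher and 1 lower, where 17.1% did.

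The genes whose profile was most like that of each member were named by Pearson's r of log2(CPM + 5) over 30 sums of a class in a library, among 6948 genes. The sums share libraries and depth, so r is a description. Wnt2 was most like Spon2 (0.93) and Lum (0.91), Sfrp2 like Podn (0.96) and Fbln1 (0.92), and Sfrp4 like Dner and Dpt (0.95 each). Nkd1 was most like Sox5 (0.94) and Rcan2 (0.93), Axin2 like Enpp2 (0.93) and Mib1 (0.91), and Lgr5 like Gsn (0.90) and Abca8a (0.89). Sfrp1 was most like Col15a1 and Scd1 (0.84 each). Wnt4 was most like Ibtk (0.84) and Gpr39 (0.83) and Wnt5a like S100a6 (0.86) and Selenoi (0.79). Dkk2 had the weakest match, with Chst2 (0.74) and Bmp5 (0.73). Among the 10 themselves the closest pairs were Sfrp4 with Lgr5 (0.77) and Sfrp2 with Sfrp4 (0.76).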

How the data were processed

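The authors deposited raw UMI counts, used here as they are; Cell Ranger 3.1.0 is named in the file headers and mm10 with GRCh38 in the submitters' processing notes. Kept barcodes had 90% or more mouse UMIs, 500 or more genes, less than 20% mitochondrial reads and no Scrublet doublet call; these were normalized and clustered with scanpy 1.11.5 (Leiden resolution 1, 15 neighbours, 30 components, 2000 variable genes) without integration. Shares of cells were also computed at 2500 UMIs per cell. Class sums gave CPM with exact Poisson intervals, and log2 ratios with 0.5 counts added and exact conditional intervals. The calls and intervals were tested on simulated data.

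The 10 genes and the lists were chosen with earlier results of these data known. The rule that put clusters into assembloid subsets was written once and revised 2 times, with the levels of the 10 genes in each cluster in view during the revisions, until the cluster high in Bmp4 and Dkk2 fell in the Dkk2 subset. The first form, a leading gene at least 2-fold over the other assembloid stroma, called the Bmp4 and Dkk2 cluster smooth muscle and the cycling cluster Dkk2. The second, which required Myh11 for smooth muscle, did the same. The form used takes clusters with at least 50% of the highest cluster's CPM of the leading gene, and requires 50% of the markers for a smooth muscle or pericyte name. The Hhip division was added after those levels were seen. Named pathway genes were up to 2 per role in each comparison, the widest log2 ratios among genes with 20 CPM; Dkk3 and Frzb were named outside it, after their values were seen.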

Additional observations from a re-analysis of the deposited data

How the results depend on the processing

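No paired analysis was possible because each group is 1 library, so no library could be left out either. Over 20 counts of genes past 2-fold, 259 of 296 values under other settings stayed within 1.5 times. The settings on subsets by the first, second and 75% rules, on all assembloid stroma and on the 7-day urothelium without bladder-type clusters were added after seeing the data. The subset rule was revised 2 times with member levels in view, so the levels within named subsets depend on it. The cause of the changes below was not tested.

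Among log2 ratios past 2-fold, signs reversed only in single subsets at 1 day against adult stroma. Dkk2 in Dkk2 cells was -2.66 under the first and the second rule (1.39 in the form used). Wnt5a in Crabp1 cells was -0.91 at resolution 0.5 and -0.87 under the 75% rule (1.82). Sfrp1 in Mmp3 cells was -0.11 at resolution 0.5 (1.05). Sfrp1 in Dkk2 cells was 0.70 with Wnt genes kept for clustering and 0.71 in cells with at least 1000 genes (-3.25). Ratios within 2-fold changed sign more widely, among them Wnt5a in Hhip-high against Hhip-low bladder stroma (-0.41, up to 0.72), Dkk2 in Crabp1 cells between ages (-0.21, up to 1.85), and in the 4 subsets Wnt5a between ages (0.10, down to -0.30) and Sfrp1 at 7 days (-0.08, up to 0.94).

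Of the 10 genes, the number higher in the 4 subsets went from 1 to 0 at resolutions 0.5 and 2 and under the 75% rule at both ages, and with doublets kept at 1 day. The number lower at 7 days went from 7 to 4 at resolution 0.5 and under the 75% rule. In 1-day urothelium the number lower went from 0 to 1 at 1.5-fold and when centred on the median of all genes.

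For the other listed genes in stroma, the number higher at 1 day went from 1 to 2 at resolution 0.5 and under the 75% rule, and to 3 at 1.5-fold. The number higher at 7 days went from 2 to 1 with Wnt genes kept, all assembloid stroma, centring, doublets kept, a minimum of 50 CPM, and the first and the second rule. At 50 CPM the numbers lower went from 12 to 5 at 1 day and from 10 to 4 at 7 days. In urothelium at 1 day the number higher went from 2 to 4 at 1.5-fold, 5 at 10 CPM and 1 at 50 CPM, and the number lower from 1 to 0 at 50 CPM. Between 7 days and 1 day the number lower went from 1 to 3 at 1.5-fold, 2 at 10 CPM, and 0 at 50 CPM, with centring and with 1000 genes, and the number higher from 1 to 0 at 50 CPM. Without bladder-type clusters both became 0, and against bladder 2 were higher and 1 lower in place of 0 and 0.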
